A study of Mus musculus with 10 samples.

Results

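The genes described here are 10 markers of the neutrophil, S100a8, S100a9, Csf3r, Cxcr2, Retnlg, Mmp8, Ly6g, Ngp, Camp and Trem1, out of 51789 genes counted. They were chosen by name as genes that neutrophils or their bone marrow precursors express. RNA-Seq was performed on cardiomyocytes isolated from the hearts of mice 4 days post-MI (myocardial infarction, by ligation of a coronary artery). Libraries came from 5 TgGRK5-MI mice, which overexpress the kinase GRK5 from a transgene restricted to cardiomyocytes, and from 5 NLC-MI mice, their littermates without the transgene. All 10 libraries therefore carry the infarction, and no sham-operated heart was analysed here. The labels give 1 replicate number per library and no strain, age or sex. The comparison asks whether a kinase transgene in cardiomyocytes changes what the cardiomyocyte preparation holds of neutrophil RNA in the days after the infarct.

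Neutrophils are short-lived granulocytes made in the bone marrow under the growth factor G-CSF. They leave the marrow and enter injured tissue along gradients of CXC chemokines, which they read through the receptor CXCR2. They are among the earliest leukocytes to enter an infarct and give way to monocytes and macrophages. Their granule proteins are mostly transcribed in marrow precursors, so that mature neutrophils carry the proteins of genes such as Ngp and Camp with little of the transcript, whereas S100a8 and S100a9 stay highly transcribed. In bulk RNA, fewer cells of a type and less RNA per cell cannot be told apart.

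Libraries held 7968779 to 23381527 counts, lowest in NLC-MI replicate 3 and next lowest in TgGRK5-MI replicate 4. Levels are given as CPM, library-scaled counts (TMM), and 3 counts, taken as the floor of a library, equal 0.128 to 0.376 CPM. The floor covers counting error only, whereas the 95% intervals of fold changes were derived from the edgeR fit and include the spread between libraries. Grk5, the gene of the transgene's protein, lay higher in every TgGRK5-MI library (log2 fold change 4.34, SE 0.32, adjusted p = 0.000246, edgeR). The 8 cardiomyocyte markers summed to 51324 to 131579 CPM. The 5 red blood cell markers (globins and Alas2) summed to 412 CPM in NLC-MI replicate 3 and to between 9.49 and 51.7 CPM in the other 9 libraries, and fold changes that moved most without NLC-MI replicate 3 are also given without it.

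All 10 neutrophil markers are protein-coding genes, and on GRCm38 (mm10, GENCODE M21) none of their exons shares bases with an exon of another gene. S100a8 (ENSMUSG00000056054, chr3:90668978-90670035, plus strand) and S100a9 (ENSMUSG00000056071, chr3:90692632-90695721, minus strand) are neighbours on chromosome 3. Csf3r (ENSMUSG00000028859) lies at chr4:126024550-126044440, Cxcr2 (ENSMUSG00000026180) at chr1:74153989-74161246 and Trem1 (ENSMUSG00000042265) at chr17:48232768-48246924. Mmp8 (ENSMUSG00000005800, chr9:7558456-7568485), Ngp (ENSMUSG00000032484, chr9:110419747-110423012) and Camp (ENSMUSG00000038357, chr9:109847379-109849617) are all on chromosome 9. Retnlg (ENSMUSG00000022651) is at chr16:48872621-48874496 and Ly6g (ENSMUSG00000022582) at chr15:75155240-75159126. Transcripts of 3 of them resemble those of another gene. Csf3r matched the processed pseudogene AC105061.2 at 96.8% identity over 1518 bases, Cxcr2 matched C79130 at 91.9% over 248 bases, and Ly6g matched Ly6c2 at 90.3% over 124 bases, so counts of these 3 genes could be split with their copies and are uncertain to that extent.

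The start regions of 4 of the markers are shown because these genes mark the extremes of what follows. S100a9 and S100a8 had the highest levels per length, Mmp8 had the largest fold change of the 6 markers that passed the filter on low counts, and Ngp was among the 3 markers with hardly a count. They were picked after the values were seen. Each run holds 300 bases, from 250 before to 50 after the start that RefSeq annotates (GRCm38.p6), read 5′ to 3′ on the gene's own strand. Capitals mark the letters TTGCNNAA (bound by C/EBP factors, which drive granulocyte genes), GAGGAA (a PU.1 core) and TATAAA (the TATA box), each searched on both strands, so that a match can also read TTNNGCAA, TTCCTC or TTTATA.
S100a8, chr3:90668821-90669120, plus strand: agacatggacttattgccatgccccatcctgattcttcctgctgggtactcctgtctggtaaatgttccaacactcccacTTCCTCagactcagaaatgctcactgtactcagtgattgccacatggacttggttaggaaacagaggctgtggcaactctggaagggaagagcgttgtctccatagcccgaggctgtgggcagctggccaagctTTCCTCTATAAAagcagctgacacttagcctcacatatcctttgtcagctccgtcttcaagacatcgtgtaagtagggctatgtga
S100a9, chr3:90695672-90695971, minus strand: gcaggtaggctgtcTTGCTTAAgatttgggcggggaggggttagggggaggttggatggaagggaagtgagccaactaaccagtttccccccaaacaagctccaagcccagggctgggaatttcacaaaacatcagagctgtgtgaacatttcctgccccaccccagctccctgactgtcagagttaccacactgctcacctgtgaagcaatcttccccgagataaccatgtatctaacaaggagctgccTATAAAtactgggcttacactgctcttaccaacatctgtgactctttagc
Mmp8, chr9:7558179-7558478, plus strand: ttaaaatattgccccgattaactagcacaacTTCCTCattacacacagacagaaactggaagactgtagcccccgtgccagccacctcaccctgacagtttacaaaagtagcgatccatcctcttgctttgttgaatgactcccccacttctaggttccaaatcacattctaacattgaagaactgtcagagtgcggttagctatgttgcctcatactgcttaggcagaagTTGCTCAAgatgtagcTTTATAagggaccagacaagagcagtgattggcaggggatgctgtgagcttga
Ngp, chr9:110419558-110419857, plus strand: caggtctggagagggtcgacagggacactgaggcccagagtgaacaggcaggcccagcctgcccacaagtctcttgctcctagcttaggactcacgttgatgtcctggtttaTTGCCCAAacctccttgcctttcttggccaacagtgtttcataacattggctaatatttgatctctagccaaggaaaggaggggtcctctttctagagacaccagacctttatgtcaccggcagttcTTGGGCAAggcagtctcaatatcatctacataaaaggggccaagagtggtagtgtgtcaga
The C/EBP letters occurred in the start regions of 5 of the 10 markers (S100a9, Mmp8, Ngp, Ly6g and Retnlg) and in 10.8% of 32851 mouse start regions of the same length. The PU.1 letters occurred in 6 (S100a8, Csf3r, Cxcr2, Mmp8, Ly6g and Trem1) and in 28.3% of all. TATAAA occurred in 4 (S100a8, S100a9, Mmp8 and Ly6g) and in 13.6% of all. It began at the annotated start itself in S100a9 and at -3, on the other strand, in Mmp8. Ly6g was searched over 2 overlapping start regions, and the same TATAAA lay in both, at -99 from the first start and -167 from the second. In S100a8 the letters TTCCTC and TATAAA stand side by side without overlap, the second beginning at -30 from the annotated start, and Ngp holds the C/EBP letters at 2 places, one on each strand. A match is a run of letters and no evidence that a factor binds there.

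S100a8 and S100a9 encode the subunits of calprotectin, the calcium-binding alarmin that makes up much of the neutrophil cytosol and that signals through TLR4 once released. S100a8 stood at 0.881, 1.50, 2.49, 3.80 and 0.785 CPM in NLC-MI replicates 1 to 5 and at 1.21, 1.83, 1.48, 4.63 and 1.88 CPM in TgGRK5-MI replicates 1 to 5. The groups overlapped, and replicate 4 was the highest library in each. The NLC-MI mean was 1.89 ± 1.26 CPM and the TgGRK5-MI mean 2.21 ± 1.38 CPM (SD, n = 5 each), for a log2 fold change of 0.19 (SE 0.49, 95% interval -0.88 to 1.27, edgeR p = 0.705, adjusted p = 1.0), and the exact permutation test gave p = 0.611. The sign of S100a8 was not stable, since its log2 fold change was -0.22 without TgGRK5-MI replicate 4, -0.010 without NLC-MI replicate 1 and -0.015 without NLC-MI replicate 5. S100a9 stood at 2.11, 1.82, 1.96, 4.97 and 1.31 CPM in NLC-MI and at 1.34, 4.01, 2.61, 4.52 and 2.95 CPM in TgGRK5-MI. The groups overlapped here as well, with 1 high library in NLC-MI and 2 in TgGRK5-MI. The means were 2.44 ± 1.45 and 3.09 ± 1.25 CPM (SD, n = 5 each), for a log2 fold change of 0.31 (SE 0.40, 95% interval -0.57 to 1.19, edgeR p = 0.456, adjusted p = 1.0; exact permutation test, p = 0.397). S100a9 had 0.789 to 2.40 counts for each S100a8 count in NLC-MI and 0.977 to 2.19 in TgGRK5-MI, overlapping ranges.

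**Figure D1:**
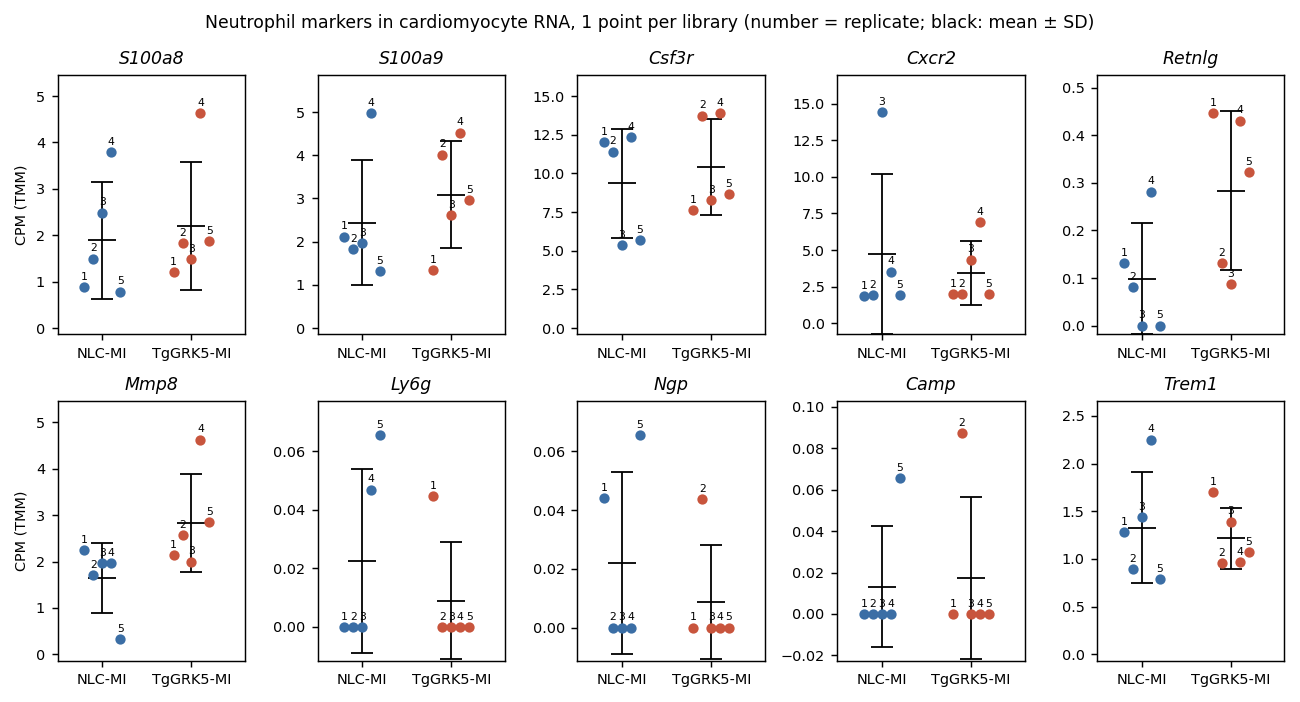
CPM of each of the 10 neutrophil markers (vertical axes, TMM-scaled, a different range for each gene) in the 5 NLC-MI and the 5 TgGRK5-MI libraries; each point is 1 library, numbered by replicate, and black bars are the mean ± SD. The groups overlap for every marker, Cxcr2 reaches 14.4 CPM in NLC-MI replicate 3, and Ly6g, Ngp and Camp lie at 0 in most libraries.

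The receptors of the set sense the signals that make, draw in and prime neutrophils. Csf3r, the receptor of G-CSF, had the most counts of any marker, at 12.0, 11.4, 5.37, 12.3 and 5.69 CPM in the NLC-MI libraries and 7.60, 13.7, 8.26, 13.9 and 8.64 CPM in those of TgGRK5-MI. NLC-MI split into 3 libraries above 11 CPM and 2 below 6 CPM, and every TgGRK5-MI value but those of replicates 2 and 4 lay between them. The log2 fold change of Csf3r was 0.14 (SE 0.29, 95% interval -0.50 to 0.78, edgeR p = 0.636, adjusted p = 1.0), from means of 9.37 ± 3.52 and 10.4 ± 3.12 CPM (SD, n = 5 each; exact permutation test, p = 0.516). It was 0.0023 without NLC-MI replicate 3 and -0.0031 without NLC-MI replicate 5, the other low library.

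Cxcr2, the receptor for CXCL1, CXCL2 and related chemokines, stood at 1.85, 1.94, 14.4, 3.52 and 1.90 CPM in NLC-MI. In TgGRK5-MI its values were 2.01, 2.01, 4.35, 6.89 and 1.99 CPM. NLC-MI replicate 3 was above every other library, and TgGRK5-MI replicates 3 and 4 were above the other 4 NLC-MI libraries. The means were 4.72 ± 5.45 and 3.45 ± 2.18 CPM (SD, n = 5 each), with a log2 fold change of -0.42 (SE 0.63, 95% interval -1.80 to 0.96, edgeR p = 0.519, adjusted p = 1.0; exact permutation test, p = 1.0). Without NLC-MI replicate 3 the sign turned, to a log2 fold change of 0.52 (SE 0.43, edgeR adjusted p = 0.833, the lowest over all alternatives for this gene). That library also held the most counts on red blood cell markers and the fewest counts in all, and the part of either in the Cxcr2 value was not tested.

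Trem1, a receptor that amplifies inflammatory signalling in neutrophils and monocytes, stood at 1.28, 0.891, 1.44, 2.25 and 0.785 CPM in NLC-MI, and at 1.70, 0.960, 1.39, 0.969 and 1.07 CPM in TgGRK5-MI. The NLC-MI values enclosed all those of TgGRK5-MI. Its log2 fold change was -0.11 (SE 0.33, 95% interval -0.85 to 0.62, edgeR p = 0.737, adjusted p = 1.0), from means of 1.33 ± 0.582 and 1.22 ± 0.321 CPM (SD, n = 5 each; exact permutation test, p = 0.825). Without NLC-MI replicate 4 it was 0.19.

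Of the granule genes among the 10 markers, Mmp8 alone was counted well above the floor in most libraries. Mmp8, the collagenase stored in neutrophil granules, stood at 2.25, 1.70, 1.96, 1.97 and 0.327 CPM in NLC-MI and at 2.15, 2.57, 2.00, 4.63 and 2.85 CPM in TgGRK5-MI. NLC-MI replicate 5 was the lowest library and TgGRK5-MI replicate 4 the highest, while NLC-MI replicate 1 lay among the lower TgGRK5-MI values, so that the groups overlapped. Mmp8 had the largest fold change of the tested markers, 1.70-fold (95% interval 0.919 to 3.15; log2 0.77, SE 0.41), from means of 1.64 ± 0.760 and 2.84 ± 1.06 CPM (SD, n = 5 each). It did not pass the test in edgeR (p = 0.0836, adjusted p = 1.0), and the two-sided exact permutation test gave p = 0.0397, the smallest of the 10 markers tested this way and not adjusted for their number. The log2 fold change was 0.50 without NLC-MI replicate 5 and 0.54 without TgGRK5-MI replicate 4, and over all alternatives its adjusted p ran from 0.482 to 1.0. The sum of 4 markers shared by all leukocytes was lowest in the same NLC-MI replicate 5, where it was 141 CPM, while the other NLC-MI libraries had 273 to 416 CPM, and its part in the Mmp8 value was not tested.

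Ngp and Camp encode antimicrobial proteins of secondary granules, neutrophilic granule protein and the cathelicidin CRAMP. Each had 3 counts over all 10 libraries. Ngp had 1 count in each of NLC-MI replicates 1 and 5 and TgGRK5-MI replicate 2, and Camp had 1 count in NLC-MI replicate 5 and 2 in TgGRK5-MI replicate 2. Every value lay below the floor of 3 counts, so a difference was not detectable at this depth. Ly6g encodes the surface antigen used to identify mouse neutrophils with antibodies. It too had 3 counts, 1 in each of NLC-MI replicates 4 and 5 and TgGRK5-MI replicate 1, and was at 0 in 7 of 10 libraries. Retnlg, which encodes a resistin-like protein secreted by neutrophils, had 3, 2, 0, 6 and 0 counts in NLC-MI and 10, 3, 1, 4 and 6 counts in TgGRK5-MI. It failed the filter on low counts. The mean of Retnlg was 0.0989 ± 0.117 CPM for NLC-MI and 0.284 ± 0.167 CPM for TgGRK5-MI (SD, n = 5 each; exact permutation test, p = 0.0635), and a fit of all genes with a count gave it a log2 fold change of 1.21 (SE 0.73, edgeR p = 0.102, adjusted p = 0.869).

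Across the whole set, 6 of the 10 markers passed the filter, and none of the 6 passed the test between TgGRK5-MI and NLC-MI. At the adjusted p under 0.10 that the study used, 0 markers were called by edgeR, where 0.0788% of the 15232 genes tested were called (0.0525% higher and 0.0263% lower in TgGRK5-MI). At an unadjusted p under 0.05 the count was again 0, with 3.85% of all genes tested below it (1.77% higher and 2.08% lower). The counts stayed at 0 at both thresholds in DESeq2, in limma-voom and in every other alternative run. At the adjusted p under 0.10, DESeq2 called 0.242% of all genes with a count, and limma-voom called 50 of 15232 genes. Unadjusted p under 0.05 was reached by 845 of 28506 genes in DESeq2 and by 1810 of 15232 in limma-voom. In the other alternatives this number ran from 457 of 15308 (without NLC-MI replicate 2) to 1163 of 28506 (no filter). The 2 groups separated without overlap for 0 of the 10 markers and for 1.0% of all genes tested. Of the 6, 4 had a log2 fold change above 0 (Mmp8, S100a9, S100a8 and Csf3r) and 2 below (Trem1 and Cxcr2), with a median of 0.17, beside a median of 0.0013 and 50.2% above 0 over all genes tested. In limma-voom with quality weights the signs of Csf3r, Cxcr2 and Trem1 turned. The intervals were wide: the upper bounds reached 2.41-fold for S100a8, 2.29-fold for S100a9, 1.72-fold for Csf3r, 1.94-fold for Cxcr2, 3.15-fold for Mmp8 and 1.53-fold for Trem1.

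**Figure D2:**
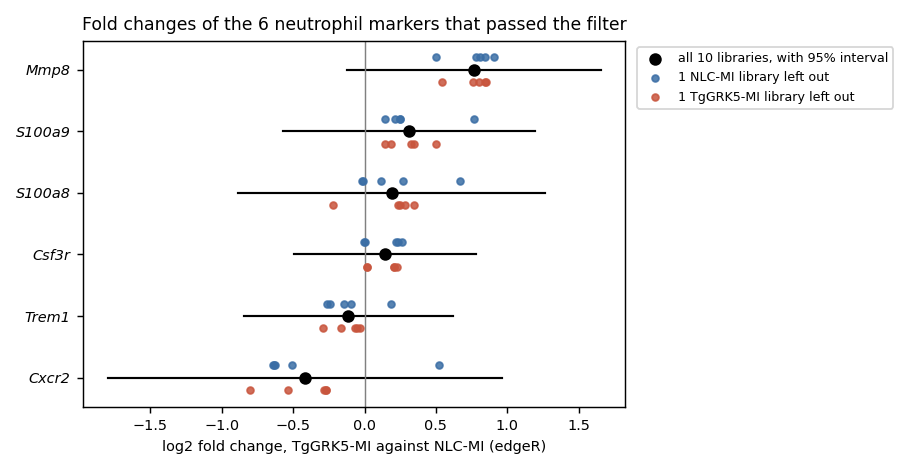
Log2 fold change of TgGRK5-MI against NLC-MI (horizontal axis, edgeR) for the 6 neutrophil markers that passed the filter; black points with lines are the estimate from all 10 libraries and its 95% interval, and blue and red points are the estimates with 1 NLC-MI or 1 TgGRK5-MI library left out. Every interval includes 0, and the point of Cxcr2 moves from -0.42 to 0.52 without NLC-MI replicate 3.

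Per kilobase of exon, the mean level over all 10 libraries ran in the order S100a9, S100a8, Csf3r, Cxcr2, Mmp8, Trem1, Retnlg, Camp, Ly6g and Ngp. S100a9 led at 5.29 ± 2.53 CPM per kilobase (SD, n = 10) and lay above S100a8 in 10 of 10 libraries. S100a8 (2.95 ± 1.82 CPM per kilobase) and Csf3r (2.74 ± 0.883) did not differ beyond their spread, since S100a8 was above Csf3r in 4 of 10 libraries. Csf3r was above Cxcr2 (1.34 ± 1.30) in 9 libraries, while Cxcr2 was above Mmp8 (0.924 ± 0.443) in 5 of 10. Mmp8 exceeded Trem1 (0.425 ± 0.149) in 9 libraries, and Trem1 exceeded Retnlg (0.323 ± 0.282) in 7. Camp, Ly6g and Ngp shared the bottom at 0.0201, 0.0167 and 0.0125 CPM per kilobase, with no order among them at this depth.

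In raw counts, which also grow with a gene's length, the set was dominated by 1 receptor. Csf3r held 47.4% of all counts on the 10 markers, Cxcr2 14.3%, S100a9 12.6%, Mmp8 9.95%, S100a8 8.69% and Trem1 5.93%. Retnlg held 0.914%, and Ly6g, Ngp and Camp held 0.0783% each. NLC-MI replicate 3 stood apart in this make-up, with 19.4% of its marker counts on Csf3r and 52.1% on Cxcr2, where the other 9 libraries had between 7.90% and 21.6% on Cxcr2.

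**Figure D3:**
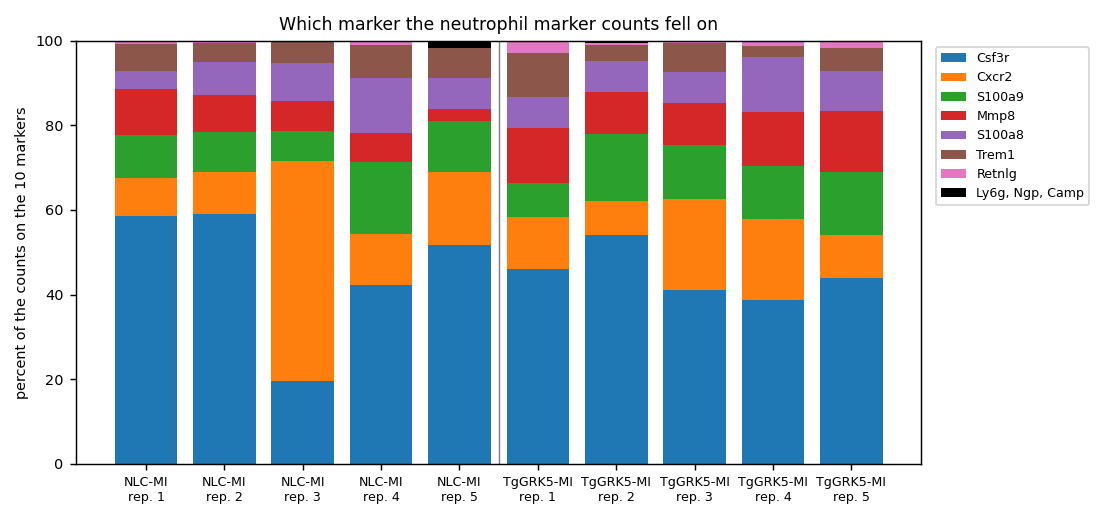
Share of the counts on the 10 neutrophil markers (vertical axis, percent) that fell on each marker, as 1 stacked bar per library, with NLC-MI left and TgGRK5-MI right of the grey line. Csf3r is the largest part of every bar but that of NLC-MI replicate 3, where Cxcr2 takes 52.1%.

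The neighbouring genes of neutrophil biology were read from 5 further lists, and none of their tested members passed the test. Of 14 granule and oxidase genes, 7 passed the filter, 0 were called and 5 had a log2 fold change above 0 (median 0.18). Lyz2, the lysozyme that macrophages also make in quantity, had the highest level, with 594 ± 338 CPM for NLC-MI and 790 ± 291 CPM for TgGRK5-MI (SD, n = 5 each), and a log2 fold change of 0.41 (SE 0.38; exact permutation test, p = 0.246). Cybb, the catalytic subunit of the phagocyte oxidase, had a log2 fold change of 0.18 (SE 0.30), from 41.3 ± 18.8 to 46.7 ± 13.8 CPM. Lcn2, a granule protein that binds bacterial siderophores and that other cells induce in inflammation, varied widely within each group, from 5.29 to 62.0 CPM in NLC-MI, and from 7.90 to 89.3 CPM in TgGRK5-MI, and its log2 fold change of 0.64 (SE 0.76; exact permutation test, p = 0.381) was smaller than its error. It was 0.10 without TgGRK5-MI replicate 4 and 1.30 without NLC-MI replicate 4. Elane, the gene of neutrophil elastase and a marker of early precursors, was at 0 counts in all 10 libraries. The 0 of Elane does not describe the other granule genes of the list. Prtn3 had 160 counts in total, passed the filter and had a log2 fold change of 0.71 (SE 0.49; exact permutation test, p = 0.103). Mpo had 30 counts in total and Ctsg had 1, and both failed the filter. Elane, Prtn3, Mpo and Ctsg were named after their values were seen.

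Among 14 receptor and adhesion genes, 12 passed the filter, 0 were called and 11 had a log2 fold change above 0 (median 0.35). Itgam and Itgb2 encode the chains of the integrin Mac-1, which macrophages carry too. Itgam stood at 48.8 ± 16.8 and 61.7 ± 12.8 CPM (log2 fold change 0.34, SE 0.26), and Itgb2 at 47.0 ± 16.5 and 59.9 ± 15.2 CPM (log2 fold change 0.35, SE 0.26). Fcgr3, a receptor for antibody complexes, stood at 45.3 ± 18.7 and 57.5 ± 13.6 CPM (log2 fold change 0.34, SE 0.27). In each of these 3 genes the difference was less than 1 SD of NLC-MI. Cxcr1, which shares ligands with Cxcr2, was at 0 counts in all 10 libraries and was also named after its value was seen.

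The chemokines and growth factors that draw in or produce neutrophils gave 7 tested genes of 10, with 0 called and 5 of the 7 below 0 (median log2 fold change -0.21). Cxcl1, a ligand of CXCR2, stood at 8.38 ± 3.40 CPM among NLC-MI and 5.94 ± 1.64 CPM among TgGRK5-MI libraries (log2 fold change -0.50, SE 0.29; exact permutation test, p = 0.198). Cxcl2, another CXCR2 ligand, stood at 7.19 ± 3.44 and 5.90 ± 3.39 CPM, and the cytokine Il1b at 8.88 ± 3.51 and 8.09 ± 3.10 CPM, with log2 fold changes of -0.29 (SE 0.42) and -0.13 (SE 0.32). Cxcl1, Cxcl2 and Il1b were higher in NLC-MI replicate 3 than in every TgGRK5-MI library. Without that library the log2 fold change of Cxcl1 was -0.39, that of Cxcl2 was -0.029 and that of Il1b was 0.070. Il17a was at 0 counts in all 10 libraries, a value seen before it was named.

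Of 6 transcription factors of the neutrophil lineage, 4 passed the filter, 0 were called and 3 were below 0 (median -0.18). The C/EBP factors Cebpb and Cebpd had log2 fold changes of -0.29 (SE 0.26) and -0.35 (SE 0.31), with 75.1 ± 21.7 and 61.5 ± 19.8 CPM for Cebpb and 24.4 ± 12.7 and 19.2 ± 3.79 CPM for Cebpd. Without NLC-MI replicate 1, the highest library for both, they were -0.13 and -0.0036, and without TgGRK5-MI replicate 4 they were -0.12 and -0.23. Spi1, the gene of PU.1, stood at 21.6 ± 7.78 and 25.6 ± 7.57 CPM (log2 fold change 0.24, SE 0.28). The 3 receptors that bind S100A8 and S100A9 were tested and 0 were called. Tlr4 stood at 24.5 ± 4.53 and 24.9 ± 3.92 CPM, with a log2 fold change of 0.02 (SE 0.17) whose sign turned under some alternatives. Cd33 stood at 7.45 ± 1.87 and 8.90 ± 1.89 CPM (log2 fold change 0.25, SE 0.22), and Ager, the gene of RAGE, at 0.884 ± 0.545 and 0.726 ± 0.420 CPM (log2 fold change -0.29, SE 0.47).

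The summed level of the neutrophil markers lay below that of the macrophage and pan-leukocyte markers in all 10 libraries. It was 11.0 to 29.2 CPM in NLC-MI (median 20.6) and 16.5 to 36.0 CPM in TgGRK5-MI (median 20.2), overlapping ranges. The 8 macrophage markers, Adgre1, Csf1r, Cd68, C1qa, C1qb, Mrc1, Fcgr1 and Mertk, all passed the filter, with sums of 353 to 1031 CPM in NLC-MI and 532 to 1161 CPM in TgGRK5-MI. All 8 had a log2 fold change above 0 (median 0.19) and 0 were called. The neutrophil sum was 1.99% to 6.69% of the macrophage sum in NLC-MI and 2.19% to 4.72% in TgGRK5-MI, and 4.95% to 10.7% and 5.48% to 7.96% of the sum of the 4 pan-leukocyte markers, Ptprc, Coro1a, Laptm5 and Lcp1. These sums differ between gene sets of other lengths and are no cell counts. The 5 monocyte markers summed to 46.1 to 160 CPM in NLC-MI and 54.2 to 191 CPM in TgGRK5-MI, and markers of T and B lymphocytes to at most 4.36 and 5.02 CPM. The 5 mast cell markers summed to 6.09 to 21.5 and 9.39 to 20.1 CPM, the 4 platelet markers to 20.9 to 64.5 and 26.0 to 58.6 CPM. Among the cells of the heart itself, the 5 fibroblast markers summed to 3059 to 18150 CPM and 3286 to 18542 CPM, and the 4 endothelial markers to 566 to 1169 CPM and 553 to 1217 CPM. For every one of these lists the ranges of the 2 groups overlapped. The part of these cells in the levels of the neutrophil markers was not tested. Monocytes, for example, can also express Csf3r, Trem1, S100a8 and S100a9.

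**Figure D4:**
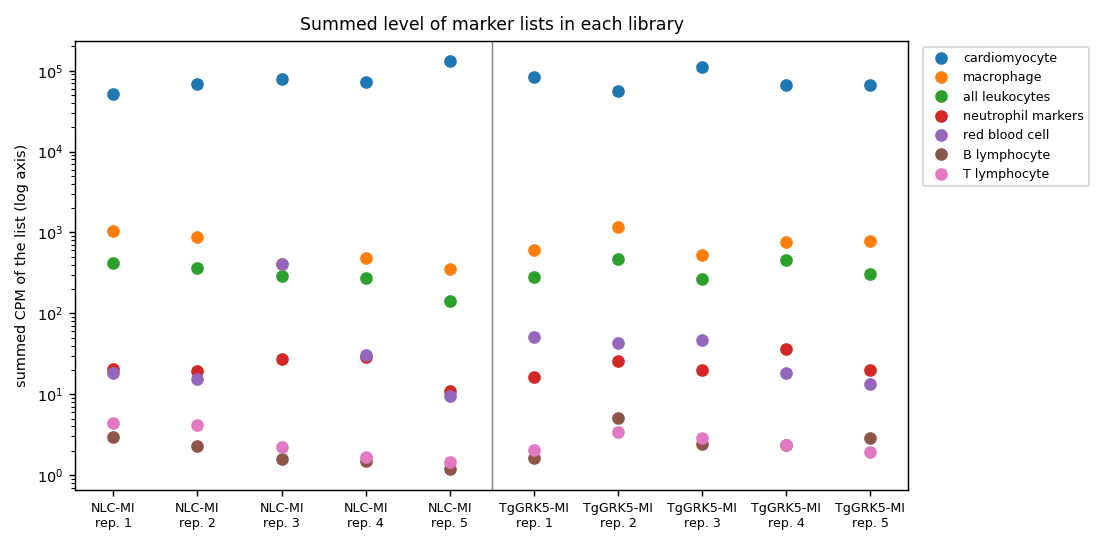
Summed CPM of 7 marker lists (vertical log axis) in each of the 10 libraries, NLC-MI left and TgGRK5-MI right of the grey line; each point is 1 list in 1 library. The neutrophil markers lie between 11.0 and 36.0 CPM, below the macrophage markers in all libraries, and the red blood cell point of NLC-MI replicate 3, at 412 CPM, covers its macrophage point.

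Over the 10 libraries, 39 relations between the 6 tested markers and 4 cell type sums, or between 2 markers, were computed on log2 CPM, with 2-sided permutation tests adjusted together. Mmp8 and Csf3r varied with the pan-leukocyte markers, with Pearson's r of 0.860 (p = 0.006, adjusted p = 0.087) and 0.771 (p = 0.006, adjusted p = 0.087). Spearman's rho was 0.648 (p = 0.049, adjusted p = 0.212) for Mmp8 and 0.685 (p = 0.034, adjusted p = 0.190) for Csf3r. Leaving out NLC-MI replicate 5 and TgGRK5-MI replicate 2, the libraries farthest from the median, gave r of 0.589 and 0.644. With the macrophage sum, Mmp8 had an r of 0.605 (permutation p = 0.047, adjusted p = 0.157), and 0.291 without these 2 libraries. Csf3r had the same r of 0.771 with the macrophage sum (p = 0.011, adjusted p = 0.110; rho = 0.636, p = 0.055, adjusted p = 0.214; 0.617 without the same 2 libraries). With the cardiomyocyte sum the sign was negative, with r of -0.705 for Csf3r (p = 0.021, adjusted p = 0.131; rho = -0.697, p = 0.030, adjusted p = 0.190) and -0.695 for Mmp8 (p = 0.026, adjusted p = 0.131; rho = -0.661, p = 0.043, adjusted p = 0.210). Without NLC-MI replicate 5 and TgGRK5-MI replicate 3 these were -0.634 and -0.216, so that the relation of Mmp8 rested on those libraries. S100a8 varied with S100a9 (r = 0.792, p = 0.007, adjusted p = 0.087; rho = 0.758, p = 0.015, adjusted p = 0.190), and r was 0.542 without replicate 4 of either group. Cxcr2 had an r of 0.068 with the pan-leukocyte sum, and its r with the red blood cell sum was 0.724 (p = 0.030, adjusted p = 0.131; rho = 0.733, p = 0.021, adjusted p = 0.190), and 0.211 without NLC-MI replicate 3. None of the 39 relations had an adjusted p under 0.05 by Pearson's r or by Spearman's rho. The points share library depth and the 2 groups, and r within a group of 5 was not computed because it would rest on fewer than 6 libraries.

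By the mean of the 6 tested markers, each standardized on log2 CPM, the 10 other genes most like the set over the 10 libraries were Kpnb1 (r = 0.955), Atic (0.927), Fhl1, Agfg1, Eno1, Arhgdia, Ccl2 (0.919), Fstl3, Ccr1 (0.913) and B430306N03Rik (0.912). Ccl2 encodes a chemokine for monocytes and Ccr1 a chemokine receptor of myeloid cells. Kpnb1, Atic and Eno1 serve nuclear import, purine synthesis and glycolysis in most cells. These names are a description without a test, and they depended on single libraries. Without NLC-MI replicate 4, 0 of the 10 were again among the top 10, without TgGRK5-MI replicate 4 there were 3, and at most 8 returned when any 1 library was left out.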

How the data were processed

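RNA of isolated cardiomyocytes was sequenced in 10 libraries (5 NLC-MI, 5 TgGRK5-MI), made per the labels with Trizol and an Illumina TruSeq RNA kit. The authors deposited 1 table of whole-number counts per Ensembl gene, not normalized. The submitters' processing notes name Bowtie2, RSEM 1.2.31, DESeq2 and build mm10, without roles, so the counts may be RSEM estimates rounded by the authors. The strand setting and annotation version are not given in the sources used here. Libraries were assigned to groups from their titles. Nothing states that same-numbered libraries are linked. No 2 libraries of the same group agreed within sampling noise, and pairs across the groups were not compared.

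Symbols, positions and exon lengths came from GENCODE M21 (51596 of 51789 identifiers), start regions from RefSeq, where all 10 markers matched (Ly6g with 2 starts), and transcripts were compared with blastn 2.17.0 at 90% identity or more. In edgeR 4.0.16 (R 4.3.3), counts were TMM-normalized and filtered with filterByExpr by group (15232 of 28506 genes with a count), and TgGRK5-MI was set against NLC-MI in its quasi-likelihood F test (option legacy=FALSE) with Benjamini-Hochberg adjustment over all genes tested. Low-count genes are thus tested only where enough libraries reach the minimum. Log2 CPM used a prior count of 2. Single genes were also compared by the exact two-sided permutation test of mean log2 CPM, whose smallest p with 5 against 5 is 0.00794. Each group had 5 mice, by the study's own account. Correlation p-values came from 100000 permutations in scipy 1.17.1. The fits were also run on simulated data, whose outcome is not given here.

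All markers are named, and of 5 further neutrophil lists those with an unadjusted p under 0.05 plus up to 3 with the highest mean CPM. The markers, lists and tests were chosen with earlier results of these data known. Alternatives were library size alone, RLE size factors, DESeq2 1.42.0, limma-voom with quality weights (limma 3.58.1), no filter, a mean of at least 10 counts, the replicate block, each library left out and, chosen after seeing the data, the legacy quasi-likelihood fit and correlations without NLC-MI replicate 3.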

Additional observations from a re-analysis of the deposited data

Results flagged for a closer look

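A library was set apart by its gap to the nearest of the 5 in its group, divided by the range of the 5. The threshold was Dixon's 95% critical value of 0.71, which chance passes in about 1 of 20 groups of normally distributed values. CPM was used without a log, so that rate is approximate here, and 7 of 78 groups passed. Among the markers these were S100a8 in TgGRK5-MI replicate 4 (4.63 CPM, the others 1.21 to 1.88), S100a9 in NLC-MI replicate 4 (4.97 CPM, the others 1.31 to 2.11), Cxcr2 in NLC-MI replicate 3 (14.4 CPM, the others 1.85 to 3.52) and Mmp8 in NLC-MI replicate 5 (0.327 CPM, the others 1.70 to 2.25). Of the related genes, Cebpd was set apart in TgGRK5-MI replicate 4 at 12.5 CPM. The summed neutrophil transcription factors were set apart in NLC-MI replicate 1 at 226 CPM, and the summed red blood cell markers in NLC-MI replicate 3 at 412 CPM.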

How the results depend on the processing

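The number of neutrophil markers called stayed at 0 under all alternatives run. Over all genes, 12 passed an adjusted p under 0.10 in edgeR, against 69 with DESeq2, 50 with limma-voom and 7 with the legacy fit. With 1 library left out the number ran from 3 to 10, and it was 3 without NLC-MI replicate 1 or 2, 5 without NLC-MI replicate 4, and 4 without TgGRK5-MI replicate 1, 3, 4 or 5. Limma-voom turned the log2 fold changes of Csf3r (-0.25), Cxcr2 (0.019), Trem1 (0.15), Cybb (-0.11), Spi1 (-0.17) and Tlr4 (-0.013), and DESeq2 that of Tlr4 (-1.4e-06). With 1 library left out, signs turned within -0.22 to 0.67 for S100a8, -0.0031 to 0.26 for Csf3r, -0.80 to 0.52 for Cxcr2, -0.29 to 0.19 for Trem1, -0.34 to 0.070 for Il1b, -0.084 to 0.10 for Tlr4 and -0.68 to 0.0096 for Ager. The cause was not tested. Mmp8 and S100a9 kept a log2 fold change above 0 in every alternative, at 0.50 to 0.91 and 0.11 to 0.76. With the replicate number as a block, 8 genes were called and 0 markers. To compare replicate numbers, each gene's group mean was subtracted from its log2 CPM, and what remained was correlated between libraries. On these remainders, same-numbered libraries of the 2 groups correlated at 0.172 on average (-0.341 to 0.662), and those with different numbers at -0.027 (-0.606 to 0.731). Of the 10 libraries, 2 correlated best with their own number. Low counts limit what can be said of Retnlg, Ly6g, Ngp and Camp. The limit is not confined to the 3 shallowest libraries, NLC-MI replicate 3 and TgGRK5-MI replicates 3 and 4. In NLC-MI replicate 2, the deepest with 23381527 counts, Ly6g, Ngp and Camp were at 0.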
